A study of Mus musculus with 8 samples.

Results

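The negative feedback genes of the ERK pathway were examined in peritoneal mast cells (PMCs), a mouse mast cell type of the connective tissue kind that is grown from cells of the peritoneum. The group consists of 10 genes of 55359 in the deposited gene table and was chosen by name: the phosphatase genes Dusp4, Dusp5 and Dusp6, the Sprouty genes Spry1, Spry2 and Spry4, the Sprouty-related genes Spred1 and Spred2, and the ETS transcription factor genes Etv4 and Etv5. All 10 were found, and 9 had enough counts to be tested. The 8 RNA libraries come from untreated cultures: 3 primary WT PMC cultures of female mice, 3 of male mice, and 1 culture of each of the lines PMC-303 and PMC-306. All cultures were wild-type and of the mixed strain C57BL/6x129/Sv, and an age of the animals was not given in the sources used here. Both lines arose spontaneously from cultures of primary PMCs. Each line is a single derivation represented by 1 library. According to the study, the lines were kept with less serum and less stem cell factor (SCF), the ligand of KIT, than the primary cultures. Transformation and medium thus cannot be told apart in any comparison made here of lines with primary PMCs. The study also grew PMC-306 in the medium of primary cultures. It found transcripts of proteases, Cdkn2a, Arf and Mrgprb2 unchanged, but reported no member of this group in that medium. The labels do not say whether cultures of the same sex came from separate mice, so that p-values measure the spread between these cultures only.

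In mast cells, KIT and the IgE receptor activate RAS, which signals through the RAF and MEK kinases to the ERK kinases. Active ERK induces genes whose products act back on the same route. DUSP6 dephosphorylates ERK in the cytoplasm, DUSP4 and DUSP5 act in the nucleus, Sprouty proteins interfere with signalling from receptors to RAS and RAF, and SPRED proteins recruit the RAS inhibitor neurofibromin to the membrane. ETV4 and ETV5 are transcription factors rather than inhibitors, and their genes are held down by the repressor Capicua until ERK inactivates it. Transcripts of this group are widely read as a gauge of ERK output, which mRNA levels alone do not measure.

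To show sequence around the starts of the members, promoter windows were taken from RefSeq. Such a window, 250 bases before to 50 after a start site (GRCm38.p6), was found for 7 members, in 8 windows because Etv5 has a pair of start sites. No entry matched Dusp4, Etv4 or Spry4. The windows were searched on both strands for the ETS motif CCGGAAGT, the Capicua octamers TGAATGAA and TGAATGGA, the AP-1 motif TGANTCA, the cAMP response element TGACGTCA and the CArG box, the motif of serum response factor. Only the window of Dusp5 held any of these motifs. It contained 2 adjacent CArG boxes, 82 to 73 and 72 to 63 bases before the start site, while 1.63% of all 32851 windows held at least 1 and 6 windows held 2 or more. Each of the other motifs occurred in between 1.21% and 7.81% of all windows. After the sequences had been read, TGAATGGG, another octamer of the Capicua type, was added. It occurred 3 times in the downstream window of Etv5 and in 1.08% of all windows, of which this was the 1 window with 3 copies. Because the octamer was picked from sequences already read, its rarity elsewhere is a description and lends no support. A match is a run of letters and not a measured binding site. The stretches before the start are printed 5′ to 3′ on the strand of the gene, up to the first exon of the leading transcript, with CArG boxes and TGAATGGG (or its complement CCCATTCA) in capitals. They were chosen to show the member that differed most between the lines (Dusp5), a member that was high in both lines (Etv5), a member that was called lower in the lines (Spred1) and the member whose level moved least (Dusp6).
Dusp5, chr19:53517326-53517531, plus strand: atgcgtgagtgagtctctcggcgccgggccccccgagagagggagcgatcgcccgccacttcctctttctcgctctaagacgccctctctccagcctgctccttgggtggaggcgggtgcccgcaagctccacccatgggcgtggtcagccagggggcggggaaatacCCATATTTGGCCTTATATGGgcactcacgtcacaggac
Etv5, chr16:22257119-22257368, minus strand: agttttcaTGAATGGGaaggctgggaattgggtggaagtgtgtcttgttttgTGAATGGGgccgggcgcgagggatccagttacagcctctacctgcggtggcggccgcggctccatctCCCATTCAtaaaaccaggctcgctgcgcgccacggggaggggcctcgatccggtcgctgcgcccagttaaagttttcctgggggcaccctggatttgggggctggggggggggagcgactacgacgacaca
Spred1, chr2:116951302-116951539, plus strand: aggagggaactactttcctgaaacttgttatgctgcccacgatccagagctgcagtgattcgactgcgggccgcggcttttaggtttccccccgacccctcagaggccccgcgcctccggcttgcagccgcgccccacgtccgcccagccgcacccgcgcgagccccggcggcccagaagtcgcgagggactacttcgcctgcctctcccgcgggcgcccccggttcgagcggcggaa
Dusp6, chr10:99098843-99099067, plus strand: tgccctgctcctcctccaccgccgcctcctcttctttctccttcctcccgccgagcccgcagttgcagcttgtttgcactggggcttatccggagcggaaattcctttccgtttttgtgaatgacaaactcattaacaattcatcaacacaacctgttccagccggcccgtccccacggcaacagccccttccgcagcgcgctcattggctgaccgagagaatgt
These positions were found by an exact match of each window in GRCm39. The stretch of Etv5 lies within the first intron of Etv5-201, the transcript that carried nearly all Etv5 counts, and its start site is 1365 bases downstream of the start of that transcript. The windows of Dusp6 and Spred1 held no searched motif. Their start sites lie 25 and 12 bases downstream of the starts of Dusp6-201 and Spred1-201. Variants of the Capicua octamers other than TGAATGGG were not searched for, so that no window is shown to lack them.

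The members are spread over 9 chromosomes (positions in GRCm39, GENCODE M39). Spred1 lies at chr2:116951524-117018277, Spry1 at chr3:37693897-37698755, Dusp4 at chr8:35274442-35287048 and Dusp6 at chr10:99086564-99103361. Chromosome 11 holds both Spred2, at chr11:19874355-19974442, and Etv4, at chr11:101660568-101676197. Spry2 is found at chr14:106128766-106136446, Etv5 at chr16:22200052-22259662, Spry4 at chr18:38719300-38736025 and Dusp5 at chr19:53517532-53530862. Predicted genes overlap 7 members on the opposite strand (all but Dusp4, Spred1 and Spred2). The libraries were stranded, and the strand setting of the counting was not given in the sources used here.

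The libraries held between 15918758 and 24180226 estimated counts. Counts were converted to CPM (counts per 1000000) with library sizes scaled by the trimmed mean of M values. A count of 3, the upper limit that a count of 0 allows, is between 0.123 and 0.187 CPM and covers counting error only. All 10 mast cell markers were detected in every library, with a summed level from 40505 to 73590 CPM. Markers of B and T cells, neutrophils, fibroblasts and mesothelium were at 3 counts or fewer in all libraries. The 7 macrophage markers summed to 441 CPM in PMC-306, of which Adgre1 contributed 426 CPM, and to between 7.16 and 68.7 CPM elsewhere, while C1qa, C1qb and Cd14 stayed at 3 counts or fewer throughout. Whether this bears on the members was not tested. The PMC-303 library contained 4 Y-linked transcripts at a summed 1.25% of the male primary mean, against at most 0.0261% in female cultures. The part of this in the results was not tested either.

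The members covered a wide range of levels in primary WT PMCs. Because comparisons between genes need a scale per transcript length, the deposited TPM values, which are scaled for transcript length, were used for their order. Spred1 was the highest, with 206 ± 39.7 TPM (SD, n = 6), followed by Dusp6 with 99.3 ± 18.4 TPM, Dusp4 with 70.4 ± 14.2 TPM and Etv5 with 24.7 ± 4.67 TPM. The remaining members were far lower. Spred2 had 4.98 ± 1.46 TPM, Spry4 3.82 ± 1.21 TPM, Spry2 3.02 ± 0.957 TPM, Etv4 2.10 ± 0.769 TPM and Dusp5 1.56 ± 0.606 TPM (SD, n = 6 each). Spry1 was at the bottom with at most 0.0369 TPM in a primary culture. Ranges of neighbours overlapped between Dusp6 and Dusp4, although Dusp6 was above Dusp4 in all 6 cultures. They overlapped at each step from Spred2 to Dusp5, where only Spred2 was above its neighbour, Spry4, in all 6 cultures. The other steps, from Spred1 to Dusp6, from Dusp4 to Etv5, from Etv5 to Spred2 and from Dusp5 to Spry1, showed no overlap. PMC-303 and PMC-306 had 146 and 126 TPM of Spred1 and 102 and 131 TPM of Dusp6, so that Dusp6 was the leading member in PMC-306.

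**Figure D1:**
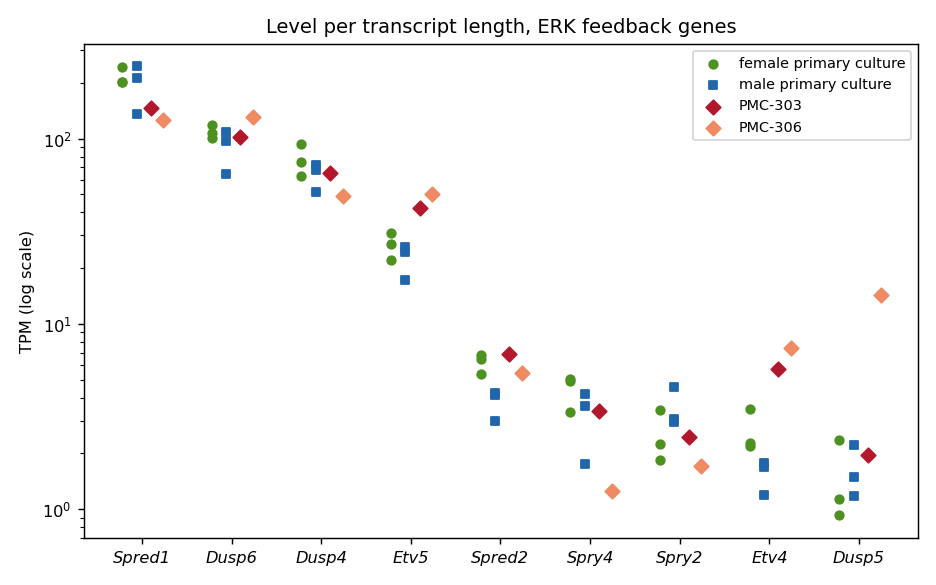
Level per transcript length of 9 members in TPM on a log axis, with circles for the 3 female primary cultures, squares for the 3 male primary cultures and diamonds for the lines; Spry1 is left out. Spred1, Dusp6, Dusp4 and Etv5 form an upper group of 17.2 TPM or more in every library, and the 14.4 TPM of Dusp5 in PMC-306 stand apart from at most 2.37 TPM in the other libraries.

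Etv4 and Etv5, the transcription factor genes of the group, were higher in both lines. Etv5 was measured at 119, 100 and 77.5 CPM in female cultures 1 to 3 and at 89.3, 92.6 and 81.6 CPM in male cultures 1 to 3, against 148 and 171 CPM in PMC-303 and PMC-306. Both lines lay above all primary cultures. The difference of the lines to the 6 primary cultures was 0.78 ± 0.15 (SE) on the scale of log2(CPM + 0.1), with an adjusted p of 0.00524 in limma. Etv4 was much scarcer, with 3.86, 5.05 and 2.53 CPM in female and 2.40, 2.55 and 3.62 CPM in male cultures, but rose further, to 10.04 and 11.3 CPM in PMC-303 and PMC-306. These levels rest on 41 to 115 counts in a primary library and on 244 and 231 counts in the lines. In bulk RNA, fewer cells with a transcript and less transcript per cell cannot be told apart. The groups did not overlap for Etv4, and the difference was 1.70 ± 0.30 (SE, adjusted p = 0.00304, limma). Relative to the mean of the primary cultures, Etv4 was 2.95-fold higher in PMC-303 and 3.33-fold higher in PMC-306, and Etv5 was 1.58-fold and 1.83-fold higher. The lines were close to each other for these genes, with PMC-306 above PMC-303 by 1.13-fold for Etv4 and 1.16-fold for Etv5. Etv4 stayed past the threshold under all 19 alternatives to the processing. Etv5 did so under 18, the exception being the comparison with the 3 female cultures only (adjusted p = 0.0725, limma).

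Of the other 7 members tested, 1 fell and 6 did not pass the test. Across all 14525 genes tested, 18.3% were called higher and 15.5% were called lower in the lines, so that 2 of 9 members higher and 1 of 9 lower is near the share of all genes. The median log2 difference was 0.02 over the 9 members, beside -0.01 over all genes. Both lines were above the highest primary culture for 2 members (22.9% of all genes) and below the lowest for 2 members (20.1% of all genes). Members were thus called in both directions.

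**Figure D2:**
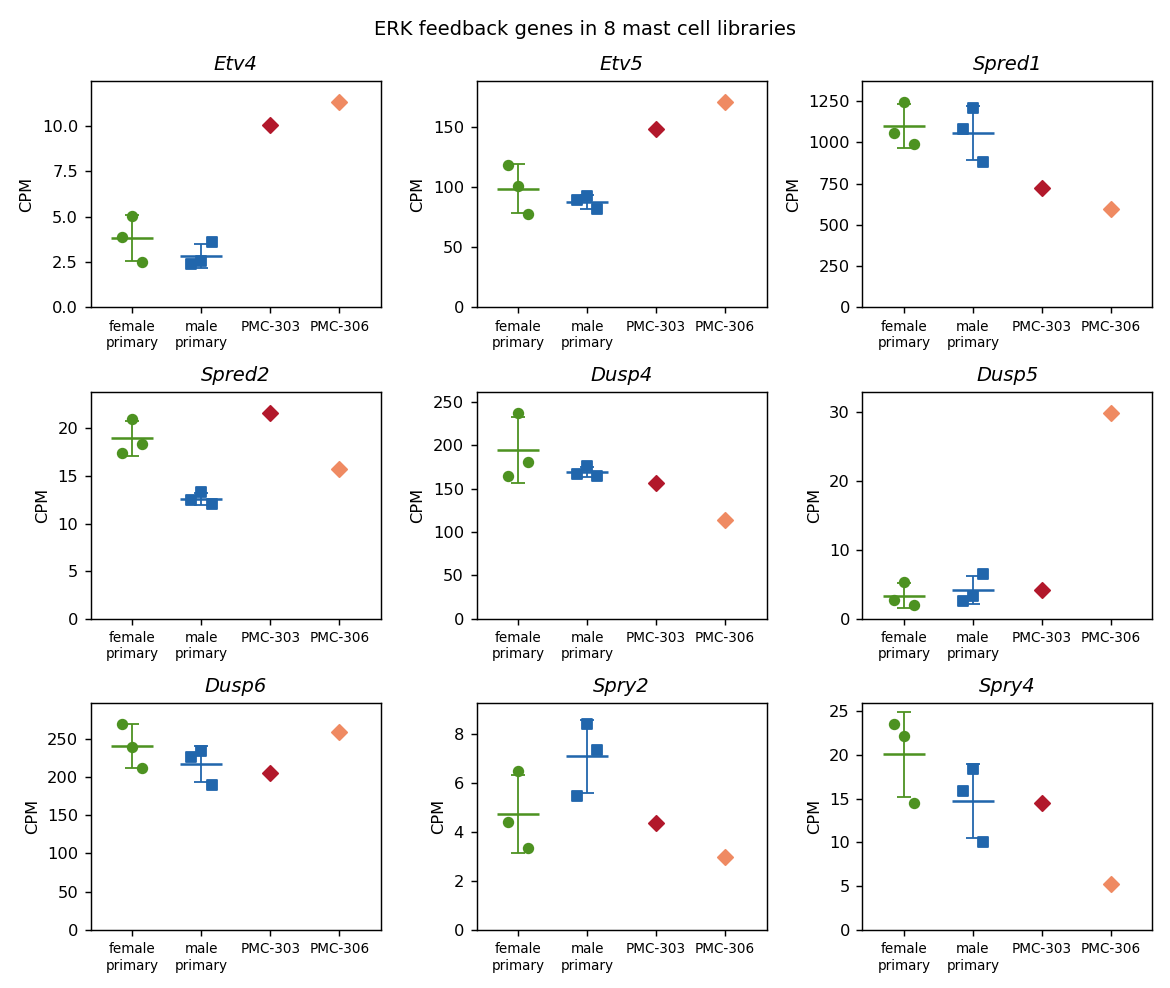
CPM of 9 members in each library, with female primary cultures as circles, male primary cultures as squares (horizontal line, mean; error bars, SD, n = 3 each) and each line as a diamond (1 library). Etv4 and Etv5 lie above and Spred1 lies below all primary cultures in both lines, while Dusp5 is high in PMC-306 alone.

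Spred1, which encodes an inhibitor that limits the activation of RAS and RAF, was the most abundant member and the one that fell in the lines. It had 1058, 1247 and 992 CPM in female and 1080, 1205 and 881 CPM in male cultures, against 721 and 595 CPM in PMC-303 and PMC-306. No line reached the lowest primary culture. The log2 difference was -0.71 ± 0.15 (SE, adjusted p = 0.00663, limma), and the fold relative to the primary mean was 0.670 in PMC-303 and 0.552 in PMC-306. The call was lost without PMC-306 (adjusted p = 0.0585), against the 3 male cultures only (0.0507) and with TPM values (0.0782), while the log2 difference stayed between -0.85 and -0.57 over all alternatives. Spred2, its broadly expressed relative, behaved differently. It had 21.7 CPM in PMC-303, just above the highest primary culture with 21.0 CPM, and 15.7 CPM in PMC-306, close to the primary mean of 15.8 ± 3.69 CPM (SD, n = 6). Its log2 difference of 0.26 (95% interval -0.29 to 0.80) did not pass the test (adjusted p = 0.447, limma).

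Dusp5, a nuclear ERK phosphatase, differed most between the lines. Primary cultures had 2.66, 5.36 and 2.00 CPM (female) and 2.61, 3.30 and 6.40 CPM (male), and PMC-303 had 4.20 CPM, within this range. PMC-306 had 29.9 CPM. This is 7.84-fold above the primary mean and 6.97-fold above PMC-303, from 608 counts in PMC-306 against 102 in PMC-303 and 38 to 122 in the primary cultures. For comparison, a single primary culture differed from the mean of the other 5 by at most 0.99 on the log2 scale, and PMC-306 by 2.97. With both lines in 1 group, the log2 difference of 1.69 did not pass the test (95% interval 0.11 to 3.27, adjusted p = 0.0941, limma). It was 3.09 without PMC-303 (adjusted p = 0.00704) and 0.29 without PMC-306 (adjusted p = 0.75). With 1 library, the level in PMC-306 has no replicate check.

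Dusp6, the cytoplasmic ERK phosphatase whose transcript is often used to report ERK activity, showed the smallest difference of the group. It had 270, 239 and 212 CPM in female and 226, 234 and 190 CPM in male cultures, and 205 and 259 CPM in PMC-303 and PMC-306, both inside the primary range. The log2 difference was 0.02 with a 95% interval from -0.29 to 0.33 (adjusted p = 0.922, limma), and no alternative moved it past the threshold. As folds, the interval runs from 0.818 to 1.26.

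Dusp4, the third phosphatase gene, was below the primary range in both lines. It had 165, 238 and 181 CPM in female and 167, 176 and 165 CPM in male cultures, against 157 and 114 CPM in PMC-303 and PMC-306. PMC-303 was thus close to the lowest primary culture, and the log2 difference of -0.43 did not pass the test (adjusted p = 0.0770, limma). Without PMC-303 it was -0.66 and passed (adjusted p = 0.0362, limma), and without PMC-306 it was -0.20 (adjusted p = 0.480). Dusp4 lies on chromosome 8, whose 698 genes with at least 1 CPM had a median log2 fold of 0.22 in PMC-303, while the median over 699 such genes was 0.04 in PMC-306. The part of this in the level of Dusp4 was not tested.

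The Sprouty genes were low in all cultures. Spry4 had 23.6, 22.1 and 14.5 CPM in female and 15.9, 18.3 and 10.02 CPM in male cultures, with 14.4 and 5.21 CPM in PMC-303 and PMC-306. PMC-306 was the single library below the primary range, at 0.303 of the primary mean, from 106 counts against 191 to 513 in the primary cultures. Spry2 had 4.41, 6.46 and 3.32 CPM in female and 5.47, 8.39 and 7.34 CPM in male cultures, with 4.36 and 2.95 CPM in PMC-303 and PMC-306, again outside the primary range only in PMC-306. Neither passed the test with both lines together. The log2 difference was -0.94 for Spry4 (adjusted p = 0.112) and -0.64 for Spry2 (adjusted p = 0.190, both limma). Without PMC-303 the value of Spry4 was -1.67 and passed (adjusted p = 0.0198), and without PMC-306 it was -0.21. Spry1 had between 0 and 3 counts in every library, which does not exceed the limit that a count of 0 allows, and it was not tested.

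Taken by line, PMC-303 was above the primary range for 3 of the 9 members tested (33.4% of all genes tested), below it for 2 (30.0%) and within it for 4. PMC-306 was above it for 3 (31.9%), below it for 4 (32.3%) and within it for 2. Dusp6 was the only one of these 9 within the range in both lines by CPM. By TPM, Dusp6 in PMC-306 was above the range, with 131 TPM against at most 118 TPM in a primary culture. PMC-306 left the range downward for Dusp4, Spry2, Spry4 and Spred1. For Dusp4 and Spred1, where PMC-303 was below the range too, PMC-306 was the lower of the lines. For Spry2 and Spry4, PMC-303 was within the range, so that PMC-306 had to lie below it. As 1 library stands for each line, these positions carry no test.

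**Figure D3:**
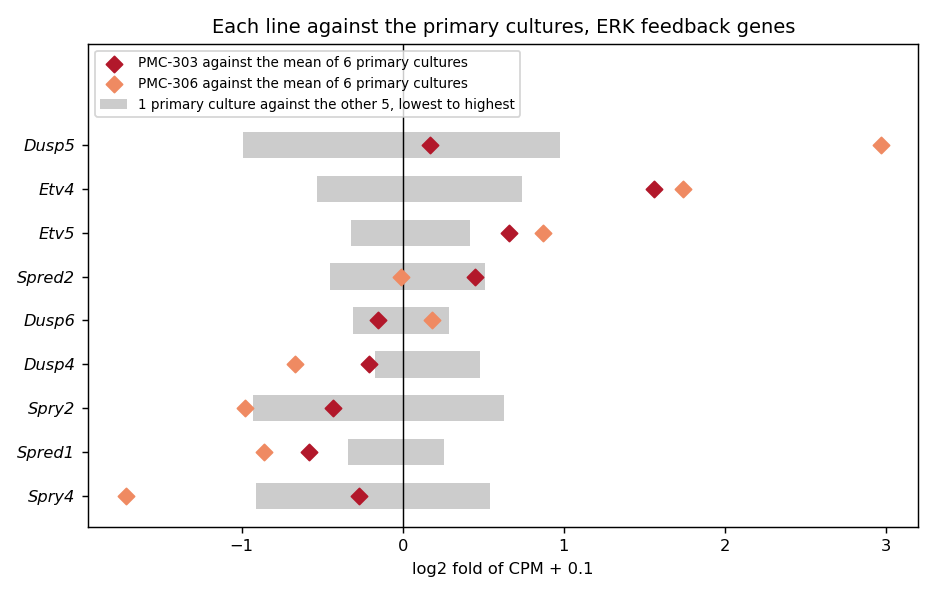
Log2 fold of each line (diamonds) relative to the mean of 6 primary cultures, on CPM + 0.1, for 9 members; grey bars span the 6 values that single primary cultures gave against the other 5. Dusp5 in PMC-306 is at 2.97 and Spry4 in PMC-306 at -1.72, whereas PMC-303 is near 0 for both, and Etv4, Etv5, Spred1 and Dusp4 lie outside the grey bars in both lines, each time in 1 direction.

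The primary cultures were also compared by sex. Spred2 had 17.5, 21.0 and 18.4 CPM in the female and 12.5, 13.3 and 12.1 CPM in the male cultures, so that every female culture was above every male culture. The log2 difference was 0.58 ± 0.11 (SE), with an unadjusted p of 0.00137 but an adjusted p of 0.988 in limma. No member passed the adjusted threshold, beside 6 of 13693 genes (0.0438%) that did and 457 with an unadjusted p under 0.05. Spred2 was the 1 member of 9 under that unadjusted threshold. The other 8 members had log2 differences between -0.60 (Spry2) and 0.45 (Spry4), and the 95% interval of each included 0. Among the cultures, male culture 3 had the lowest level of 5 members and female culture 2 the highest level of 4. How often these cultures were at an extreme over all genes was not examined.

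Most members were read from a single transcript. Dusp4, Dusp5, Spry2 and Spry4 had 1 transcript in the table, and 4 of the 5 remaining members, Spry1 left out, had the same leading transcript in all libraries by estimated counts. Etv5-201 held between 99.3% and 100% of the Etv5 counts and Spred1-201 between 96.3% and 97.2% of the Spred1 counts. Dusp6-201 held 90.6% to 95.9% of the Dusp6 counts in primary cultures, 90.1% in PMC-303 and 87.1% in PMC-306, where a further coding transcript had 6.57% against at most 3.54% in a primary culture. Spred2 was divided between Spred2-202, with 53.2% to 69.9% in primary cultures, 71.5% in PMC-303 and 56.1% in PMC-306, and Spred2-201. By TPM the leading transcript was the same in all libraries for 3 of the 5: besides Etv4, Spred2 varied, as Spred2-202 led in PMC-303 with 56.6% of the Spred2 TPM and Spred2-201 in PMC-306 with 51.2%. Etv4 was the exception by counts. Etv4-201 held 67.2% and 72.5% of its counts in the lines but only 24.7% in female culture 2, where Etv4-202 held 57.3%. The split rests on few counts there, and estimated shares of transcripts with common exons are uncertain.

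The wider pathway was followed in lists of genes around these members. Kit, the gene of the receptor at its head in these cells, had less transcript in both lines, with 1946 and 2055 CPM in PMC-303 and PMC-306 against 3359 to 3932 CPM in primary cultures (log2 difference -0.88 ± 0.12 (SE), adjusted p = 0.000885, limma). Of 19 genes of the core cascade, 4 were higher (18.3% of all genes tested), 5 were lower (15.5%) and 10 did not pass, with a median log2 difference of 0.00. Rasgrp1, a RAS activator responsive to diacylglycerol, rose the most, from 8.52 to 19.9 CPM in primary cultures to 56.2 and 62.2 CPM in the lines. Ksr1, a scaffold of the cascade, fell the most, from between 60.2 and 86.8 CPM to 35.8 and 24.5 CPM. The log2 difference was 2.18 for Rasgrp1 (adjusted p = 0.001) and -1.34 for Ksr1 (adjusted p = 0.00131, both limma). The adaptor gene Shc1 was higher by 0.51 (adjusted p = 0.00828, limma), a call lost without PMC-303 (0.0625) and against the 3 male cultures only (0.0545). Braf had a log2 difference of -0.42 (adjusted p = 0.00638, limma), a call lost with TPM values (0.426) and against the 3 female cultures only (0.0582). Map2k1 and Mapk3, which encode the kinases MEK1 and ERK1, did not pass, with log2 differences of 0.24 and 0.41.

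Other inhibitors of the route were called in both directions. Of 17, 3 were higher (18.3% of all genes tested), 4 were lower (15.5%) and 10 did not pass, with a median log2 difference of -0.09. Errfi1, an ERK-induced inhibitor of EGF receptor family kinases, resembled Dusp5 in that it had 42.9 CPM in PMC-306, against 4.86 CPM in PMC-303 and 1.67 to 2.80 CPM in primary cultures. Its log2 difference was 2.62 (adjusted p = 0.0152, limma), and it was 4.18 without PMC-303 and 1.06 without PMC-306. Against the 3 female or the 3 male cultures alone the call was lost (adjusted p = 0.114 and 0.0988). Nf1, which encodes the neurofibromin that SPRED proteins recruit, was lower, with 14.1 and 11.2 CPM in the lines against 17.5 to 27.1 CPM (log2 difference -0.76, adjusted p = 0.0086, limma), a call that was lost without PMC-306 (adjusted p = 0.0719), with TPM values (0.316) and against the 3 male cultures only (0.0523). Cbl, a ubiquitin ligase acting on KIT, had a log2 difference of -0.54 (adjusted p = 0.0215, limma) and was not called without PMC-306 (adjusted p = 0.168), with total counts (0.0520) or against the 3 female or the 3 male cultures only (0.0914 and 0.0851). Cic, the gene of Capicua, had 73.6 and 71.9 CPM in the lines, inside the primary range of 70.6 to 97.3 CPM, and its log2 difference of -0.22 did not pass (adjusted p = 0.155, limma). In the remaining members of the same families, 7 genes were tested, of which 0 were higher (18.3% of all genes tested) and 1 was lower (15.5%). The gene called lower was Dusp8, at -3.20 (adjusted p = 0.0112, limma). It was at 1.03 CPM in PMC-303 and 0.0491 CPM, a single count, in PMC-306, so that the size of the difference moved with the offset and the line: it was -1.70 with an offset of 1 CPM, -4.66 without PMC-303 and -1.74 without PMC-306. The call was lost without PMC-306 (adjusted p = 0.0825) and against the 3 female cultures only (0.101). Spry3 was not in the table used here.

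Of 14 other genes that respond to ERK, 11 were tested, of which 5 were higher (18.3% of all genes tested), 1 was lower (15.5%) and 5 did not pass. Their median log2 difference was 1.20, beside 0.02 for the members and -0.01 for all genes. Fos and Egr1, immediate early genes, had the largest values. Egr1 had 80.0 and 257 CPM in PMC-303 and PMC-306 against 1.31 to 21.3 CPM, and Fos had 9.96 and 36.9 CPM against 0.157 to 2.89 CPM. The log2 differences of 3.95 for Egr1 (adjusted p = 0.0177) and 4.40 for Fos (adjusted p = 0.00879, both limma) were not called without PMC-306 (adjusted p = 0.130 and 0.0788), and Egr1 was also not called against the 3 male cultures only (0.0783). Emp1, a membrane protein gene, was higher by 1.98 (adjusted p = 0.0295, limma). It had 38.5 CPM in PMC-303, inside the primary range of 10.5 to 41.6 CPM, and 122.7 CPM in PMC-306. Without PMC-306 the difference was 1.15. Emp1 was not called against the 3 male cultures only (adjusted p = 0.172, limma), nor without female culture 1, female culture 3 or male culture 1. Junb and Tnfrsf12a, the remaining genes called higher, were named after their values were seen. Junb had 130 and 278 CPM in PMC-303 and PMC-306 against 40.8 to 54.0 CPM (log2 difference 1.97, adjusted p = 0.000618, limma). Tnfrsf12a had 6.26 and 3.78 CPM in these lines against 1.00 to 2.36 CPM (log2 difference 1.76, adjusted p = 0.00479, limma). Ccnd1, the cyclin D1 gene and the 1 gene of the list that fell, was also named after its values were seen. It had 205 and 156 CPM in the lines against 370 to 1096 CPM (log2 difference -1.74, adjusted p = 0.00505, limma). The proliferation genes Mki67, Top2a and Pcna were higher in the same libraries by 3.77, 3.43 and 1.67 (adjusted p = 0.000667, 0.000263 and 5.42e-05, limma). The part of cell division in the levels of the members was not tested.

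**Figure D4:**
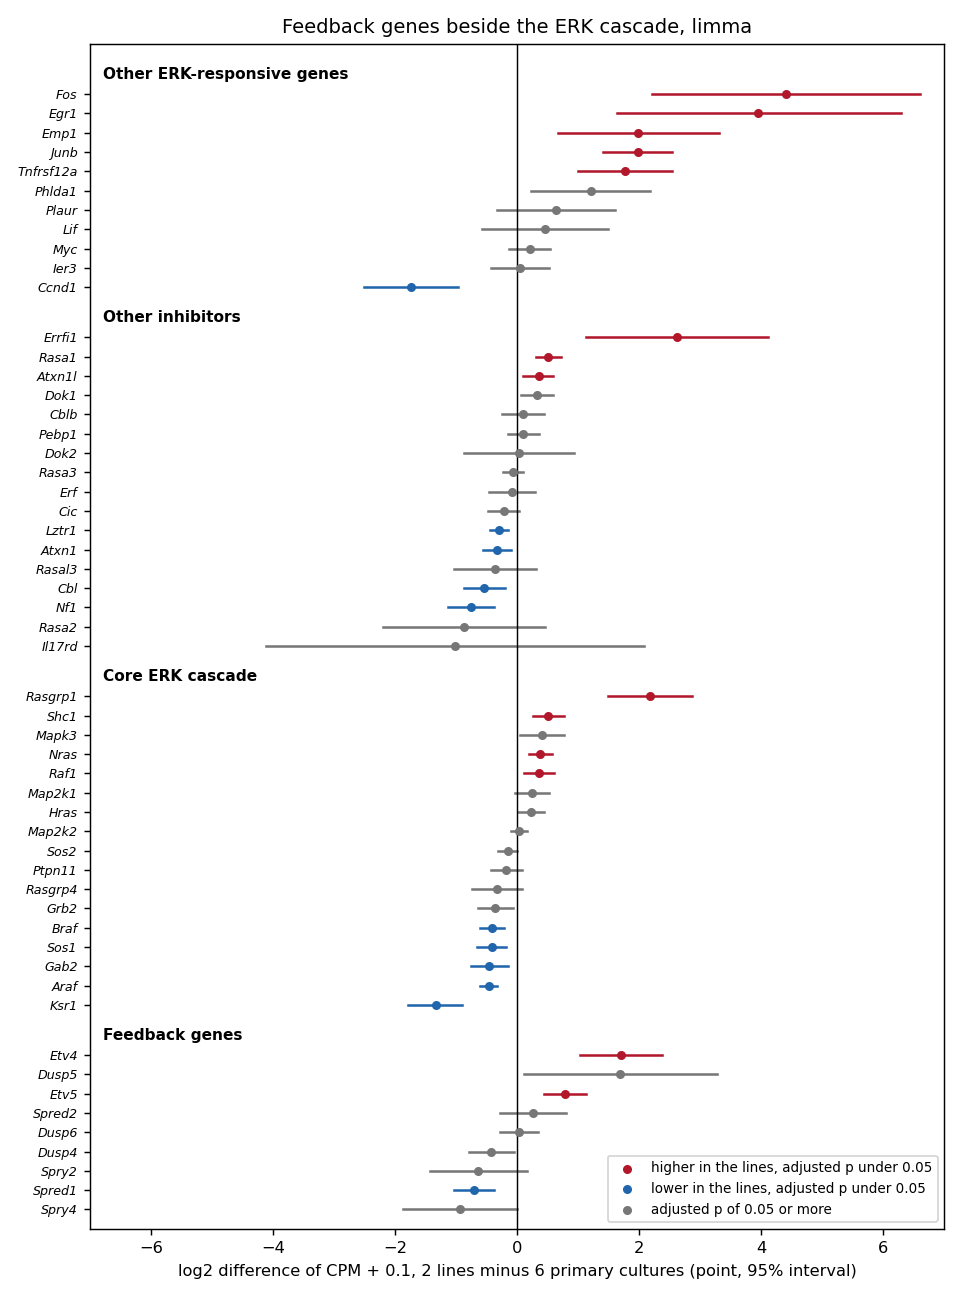
Log2 difference of the 2 lines to the 6 primary cultures on CPM + 0.1 (points) with 95% intervals (lines), for genes of 4 lists that were tested and are reported here; red is higher, blue is lower with an adjusted p under 0.05 and grey is not called (limma). Within the feedback genes Etv4 and Etv5 are red and Spred1 is blue, and the wide interval of Dusp5 comes with lines at 4.20 and 29.9 CPM.

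The genes whose log2 level followed that of Dusp6 most closely over the 8 libraries were Tasp1, Klhl21 and Tmeff2, with Pearson's r of 0.913, 0.908 and 0.899. For Spry2 they were Riok3, Pex14 and Rabepk, with r of 0.957, 0.952 and 0.944. These were the highest of 8698 genes ranked, with library scaling shared by all points, and are given as a description. Riok3, for example, ran from 164 to 201 CPM while Spry2 ran from 2.95 to 8.39 CPM, so that a like order came with a much narrower range.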

How the data were processed

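RNA from 8 cultures was analysed as gene and transcript tables of the whole series. The authors prepared stranded total RNA libraries and, per the labels' processing notes, used Trim Galore 0.6.7, STAR 2.7.9a and Salmon 1.5.2 with GRCm39. The deposited values are estimated counts, not normalized, and TPM. A spreadsheet had rewritten 3.37% of gene count cells and 21.8% of gene TPM cells as dates or with additional points. Each such count was read back in the 1 way that leaves at most 3 decimals. After this, 99.7% of gene counts were within 0.2 of the sum of their transcripts. The decimal point of 9339 gene TPM cells was placed to fit the counts.

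Members and gene lists were chosen with earlier results of these data known. As the table holds text cells, the lines (2 libraries) were set against the 6 primary cultures, and the 3 female against the 3 male cultures, in limma 3.58.1 (R 4.3.3). The fit used log2(CPM + 0.1), let the prior variance follow the mean, and adjusted p-values by Benjamini-Hochberg (threshold 0.05), for genes with about 10 counts in at least 2 or 3 libraries and 15 in total. A fold of a single line uses CPM + 0.1 and has no test. Named from each list were the 3 genes with the largest log2 difference among those called with a mean of at least 1 CPM, the heads of the cascade (Kit, Braf, Map2k1, Mapk3 and Cic; the values of 2 others are not reported here), and for Dusp6 and Spry2 the 3 genes most alike with a mean of at least 10 CPM. Adgre1, Ccnd1, Ier3, Lif, Il17rd, Rasa2 and other genes named outside this rule were chosen after their values were seen, as was the octamer TGAATGGG. All 15 pairs of primary libraries differed by more than sampling noise (lowest chi-square over its degrees of freedom, 20.6). Gene positions come from GENCODE M39, promoter sequences from RefSeq (GRCm38.p6). On simulated data for the lines (14525 genes), 90% of 2-fold and 100% of 4-fold changes were recovered, with 11 false calls. Every simulated gene had a dispersion of 0.02, and each change was the same in both lines. The recovery therefore does not apply to members that vary more or that differ between the lines, such as Dusp5. Other steps used Python 3.11.15.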

Additional observations from a re-analysis of the deposited data

Results flagged for a closer look

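Among the 64 genes searched, which are members and genes of the lists with a mean of at least 1 CPM, 3 had 1 of the 6 primary cultures far from the others, where chance flags about 1 in 20 groups, or 3.2 genes. Dusp4 was highest in female culture 2, with 238 CPM against 181 CPM in the next culture. Dok2, an adaptor gene that inhibits RAS signalling, was highest in male culture 3, with 47.6 CPM against 20.6 CPM, and Tnfrsf12a was highest in male culture 2, with 2.36 CPM against 1.41 CPM.

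For 3 genes, none of them a member, the lines lay on opposite sides of the primary range, which was not tested. Ier3, an immediate early gene, had 260 and 494 CPM in PMC-303 and PMC-306 against 319 to 405 CPM. Lif, a cytokine gene, had 34.0 and 136 CPM against 34.4 to 71.3 CPM. Map2k2, a MEK kinase gene, had 67.8 and 63.3 CPM against 63.5 to 65.9 CPM, close to the range on either side.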

How the results depend on the processing

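Over 19 alternatives for the lines against primary cultures, 2 members stayed higher except against the 3 female cultures only, where 1 did, and without PMC-303, where 3 did. The count of lower members was 0 with TPM values and against the 3 male cultures only, where the main count is 1. Against the 3 female or the 3 male cultures only, 2108 and 3007 of all genes were called, against 4913. Leaving out 1 library gave between 0 (without PMC-306) and 3 (without PMC-303) lower members. For single lines, total counts without a scaling factor left 1 member below the primary range in both lines and 1 below it in PMC-303, and TPM values left 0 and 0, where the main counts are 2 and 2. With TPM values the log2 fold of Dusp6 was 0.04 in PMC-303 and 0.40 in PMC-306, against -0.15 and 0.18. Leaving out 1 primary culture gave between 2 and 4 members below the range in PMC-303, with 4 without male culture 3. Total counts moved the median of all genes by 0.11 and TPM by 0.14 on the log2 scale, and 67.1% and 70.7% of calls were then higher, against 54.1%. Members called under the main settings changed direction under none of these alternatives.

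The replicate numbers of female and male cultures were tried as a block. With the replicate block, 0 members and 5 genes were called between sexes, against 0 and 6 without it. Deviations of same-numbered cultures correlated at 0.40, -0.22 and 0.28, and not every culture correlated best with its own number. These few values cannot show whether a number marks a shared day or litter. By chi-square over its degrees of freedom, the pairs among female culture 1, male culture 1 and male culture 2 were the closest. They were at 20.6, 23.8 and 26.2, against 41.0 to 68.0 for the other pairs. Whether this grouping marks a shared origin was not tested.

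Each line has 1 library, and the scarcer members rest on few counts (38 to 122 for Dusp5 and 63 to 147 for Spry2 in a primary library), which limits what can be shown for them. Spry1 was not detectable above the limit of 3 counts.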

Other observations

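A pair of genes around the members fell into separate levels among the primary cultures. Spred3, the third gene of the SPRED family, had 13.05 CPM in female culture 1, 12.3 CPM in male culture 1 and 12.3 CPM in male culture 2, but 1.27, 1.05 and 2.26 CPM in female culture 2, female culture 3 and male culture 3. Il17rd, which encodes an inhibitor of ERK signalling also known as Sef, had 2.99, 2.71 and 3.11 CPM in the first 3 of these cultures and 0.132, 0.0527 and 0.157 CPM in the others. The lines had 2.06 and 1.47 CPM of Spred3 and 0.288 and 0.295 CPM of Il17rd, near the lower level. No member showed such a gap between the same cultures. The split was noticed in the values and was not tested.

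Rasa2, which encodes a protein that switches RAS off, had 11.1 CPM in PMC-306 against 75.1 CPM in PMC-303 and 39.2 to 78.1 CPM in the primary cultures. With both lines together its log2 difference was -0.87 and did not pass the test (adjusted p = 0.285, limma).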
